A study of Mus musculus with 5 samples.

Results

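The peaks described here lie around Pou5f1, Sox2, Nanog and Sall4, the 4 genes at the core of the transcription factor network of pluripotent cells. Each gene was represented by a fixed window of mm9: 35625000 to 35665000 on chromosome 17 for Pou5f1 (40 kb), 34450000 to 34670000 on chromosome 3 for Sox2 (220 kb), 122600000 to 122680000 on chromosome 6 for Nanog (80 kb) and 168540000 to 168630000 on chromosome 2 for Sall4 (90 kb). Every peak that touched a window by at least 1 bp was a member, which gave 110 of the 156288 peaks of the series. These were 21 of 28941 H3K4me3 peaks, 33 of 33600 H3K27ac peaks, 43 of 76772 H3K4me1 peaks and 13 of 16975 H3K27me3 peaks. The cells were EpiSC9, a mouse epiblast stem cell line, cultured in medium with FGF2 at 10 ng/ml over irradiated fibroblast feeders, and each chromatin immunoprecipitation used 5000000 fixed cells. Each of the 4 antibodies had 1 library and there was no replicate, so all values describe these libraries and no difference between genes could be set against a spread. The share of signal from feeder cells was not measured. An input library was not analysed here.

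Pou5f1 encodes OCT4, the POU-domain factor without which the embryo forms no pluripotent cells. Sox2 encodes the HMG-box partner that binds next to OCT4 on composite sites, Nanog a homeodomain factor that stabilises self-renewal, and Sall4 a zinc finger protein that keeps Pou5f1 active. All 4 are known to be transcribed in epiblast stem cells, the primed counterpart of embryonic stem cells, with Nanog known to be lower there than in naive cells. H3K4me3 is found at active and poised promoters, H3K4me1 at enhancers and on the flanks of promoters, H3K27ac at active promoters and enhancers, and H3K27me3, deposited by Polycomb complexes, at silenced developmental genes.

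RefSeq promoter sequences, available for 3 of the 4 genes, are shown because binding of OCT4 and SOX2 to their own genes is the best known feature of this network. They hold the 250 bases before the annotated start on GRCm38.p6, read 5′ to 3′ on the plus strand. Only 1 start per gene was used, the most upstream entry, and Pou5f1 and Nanog had 2 entries each. The sequences were matched by symbol, and their positions are on another build than the peaks, so no distance between them and a peak is given. Both strands were searched for CATTGT, a core of SOX sites, for ATGCAAA, a core of POU sites, and for CATTGT followed by any 1 base and ATGCAAA, the composite order. Capitals mark the matches.
Pou5f1 (chr17:35505782-35506031): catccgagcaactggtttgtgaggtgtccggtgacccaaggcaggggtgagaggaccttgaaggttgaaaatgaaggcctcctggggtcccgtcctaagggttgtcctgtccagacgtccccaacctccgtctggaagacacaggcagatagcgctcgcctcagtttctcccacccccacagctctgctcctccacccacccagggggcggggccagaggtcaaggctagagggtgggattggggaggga
Sox2 (chr3:34649745-34649994): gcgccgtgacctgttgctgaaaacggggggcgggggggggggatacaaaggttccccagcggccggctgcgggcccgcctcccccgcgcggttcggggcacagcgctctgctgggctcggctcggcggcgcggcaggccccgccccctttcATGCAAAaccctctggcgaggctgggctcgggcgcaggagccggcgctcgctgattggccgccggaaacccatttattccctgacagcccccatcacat
Nanog (chr6:122707239-122707488): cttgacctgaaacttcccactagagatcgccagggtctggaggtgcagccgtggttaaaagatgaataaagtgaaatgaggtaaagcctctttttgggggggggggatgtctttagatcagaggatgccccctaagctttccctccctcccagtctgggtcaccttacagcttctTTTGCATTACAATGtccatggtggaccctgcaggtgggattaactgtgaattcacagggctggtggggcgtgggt

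The Nanog promoter held the composite, TTTGCATTACAATG on the plus strand, at bases 75 to 62 before the start. Among 27025 promoters, 1 chosen start for each gene, 1 (0.00370%) held these letters in this order and spacing, the Nanog promoter itself. CATTGT was held by 2942 (10.9%) and ATGCAAA by 1101 (4.07%), on either strand. Other starts of the same genes were not searched. In the Sox2 promoter ATGCAAA lay at bases 99 to 93 before the start, and in the Pou5f1 promoter none of these letters was found. The sequences also differed in base composition. The G and C content was 72.0% with 27 CpG dinucleotides for Sox2, 62.0% with 8 for Pou5f1 and 52.0% with 3 for Nanog, against medians of 52.0% and 6 over the table.

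Marks of activity covered more of every gene window than of the autosomes. H3K27ac covered 26.4% of the Pou5f1 window, 16.5% of the Sall4 window, 13.3% of the Nanog window and 8.44% of the Sox2 window, against 1.51% of the autosomes. For H3K4me3 the shares were 15.8% at Pou5f1, 8.26% at Sall4, 5.67% at Sox2 and 4.17% at Nanog, against 1.32%. H3K4me1 covered 41.9% at Pou5f1 and 20.3% to 22.4% in the other windows, against 5.87%. The windows were drawn around genes and differ in length, so these shares rank neither genes nor marks. H3K27me3 was the exception: it covered 3.58% of the Sox2 window, against 0.412% of the autosomes, and no H3K27me3 peak lay in the windows of Pou5f1, Nanog and Sall4.

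**Figure D1:**
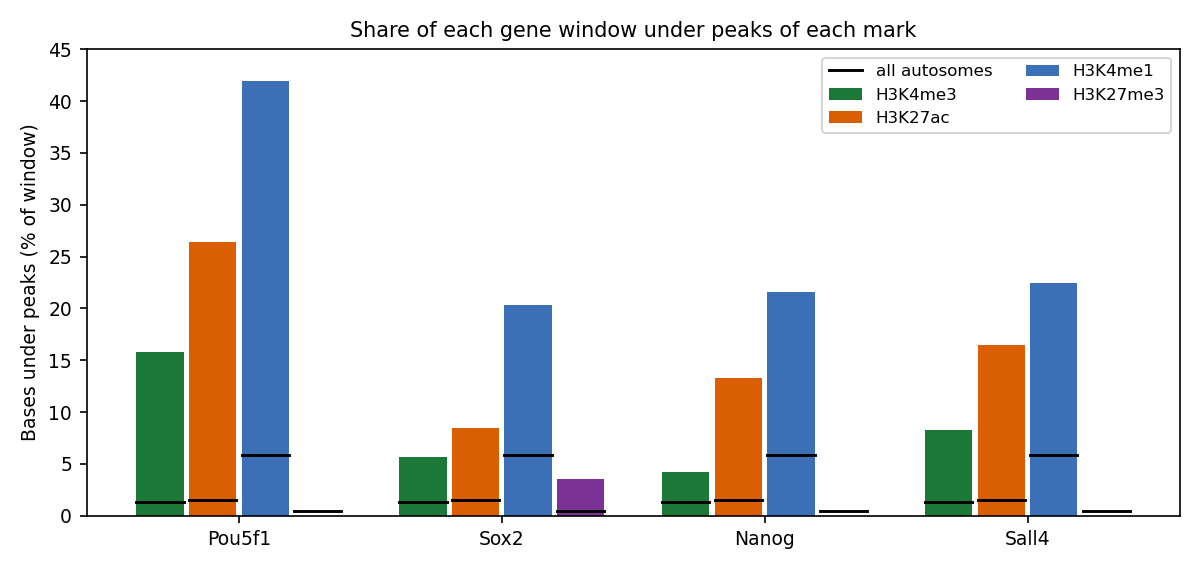
Bars give the percentage of each gene window (x axis) that lies under peaks of each mark (y axis), and black lines give the same percentage over all autosomes. Each bar is 1 library. H3K4me3, H3K27ac and H3K4me1 stand above the autosomal line in all 4 windows, and H3K27me3 has a bar at Sox2 alone.

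The scores of the lists are those the authors deposited. They have no stated unit, begin at 50 and often stop at about 3100, so they were used to rank peaks within a list, by the percentage of peaks with a lower value (the percentile). The read depth of the libraries is unknown. Since no annotation of mm9 was used here, gene starts could not be placed, and the widest H3K4me3 peak of each window, called its leading peak, stood in for the promoter. A peak was called distal where no H3K4me3 peak lay within 1 kb.

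At Pou5f1 H3K4me3, H3K27ac and H3K4me1 lay together, and the window held no H3K27me3 peak. The leading H3K4me3 peak, at 35642202 to 35645385, was 3184 bp wide (percentile 97.5) and scored 3100. A weak peak of 398 bp (score 69.99) lay 340 bp before it, at 35641464 to 35641861. One H3K27ac peak, at 35639190 to 35645464, spanned 6275 bp and scored 3100, and it covered all of the leading peak and 3.01 kb on its lower side, but only 79 bp on its higher side. The gene is on the plus strand in RefSeq, so the lower side is the one before the gene. A distal and a proximal enhancer before Pou5f1 are well known from stem cells, and neither was placed on these peaks. Smaller H3K27ac peaks lay on either side, of 843 bp at 35638300 to 35639142 (score 168.46) and of 1552 bp at 35645473 to 35647024 (score 330.56). The latter began 87 bp past the leading peak, so H3K27ac went on to 35647024 on the higher side after a small break.

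H3K4me1 at Pou5f1 overlay the promoter itself. Its widest peak there, 5089 bp at 35640304 to 35645392, scored 955.56 (percentile 98.8, the highest of the 43 H3K4me1 peaks in the windows) and contained the whole leading H3K4me3 peak. H3K4me1 peaks of 2035 bp at 35638230 to 35640264 (score 368.88) and 1884 bp at 35645530 to 35647413 (score 248.17) lay on either side of it, and both met H3K27ac. Among the 5524 H3K4me3 peaks at least as wide as the narrowest of the 4 leading peaks (1842 bp), 769 (13.9%) lay wholly under H3K4me1, and the median cover was 73.9% (interquartile range 52.5 to 91.0). A second active region followed 7.19 kb beyond the leading peak, on the side where Tcf19 and then Cchcr1 are the next protein-coding genes. It held H3K4me3 peaks of 1260 bp at 35652577 to 35653836 (score 1116.24) and 1482 bp at 35653865 to 35655346 (score 2089.73). Each met H3K27ac, in peaks of 599 bp at 35653192 to 35653790 (score 135.29) and 1290 bp at 35654076 to 35655365 (score 348.01). H3K4me1 reached this region in peaks of 3423 bp at 35650333 to 35653755 (score 443.64) and 1776 bp at 35654247 to 35656022 (score 284.4). To which gene these peaks belong was not assigned.

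Sox2 combined the active marks with H3K27me3. Its leading H3K4me3 peak, at 34548860 to 34552987, was 4128 bp wide, rank 203 of 28941, and scored 3100. Gaps of 58 and 49 bp separated it from a peak of 1899 bp at 34546903 to 34548801 (score 1299.57) and one of 250 bp at 34553037 to 34553286 (score 55.33). With peaks within 100 bp joined, the 3 formed a block of 6384 bp, rank 40 of 24410 such blocks. H3K27ac covered this region in peaks of 2033 bp at 34546833 to 34548865 (score 1606.53) and 5716 bp at 34548920 to 34554635 (score 3100), which together overlay 98.7% of the leading peak. The H3K4me1 peaks beside it, of 1248 bp at 34547591 to 34548838 (score 171.96) and 3897 bp at 34553067 to 34556963 (score 422.71), stopped 21 and 79 bp short of it, so that 0 bases of the leading peak lay under H3K4me1. That was true of 237 of the 5524 wide H3K4me3 peaks (4.29%). For the joined block the H3K4me1 cover was 23.0%.

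**Figure D2:**
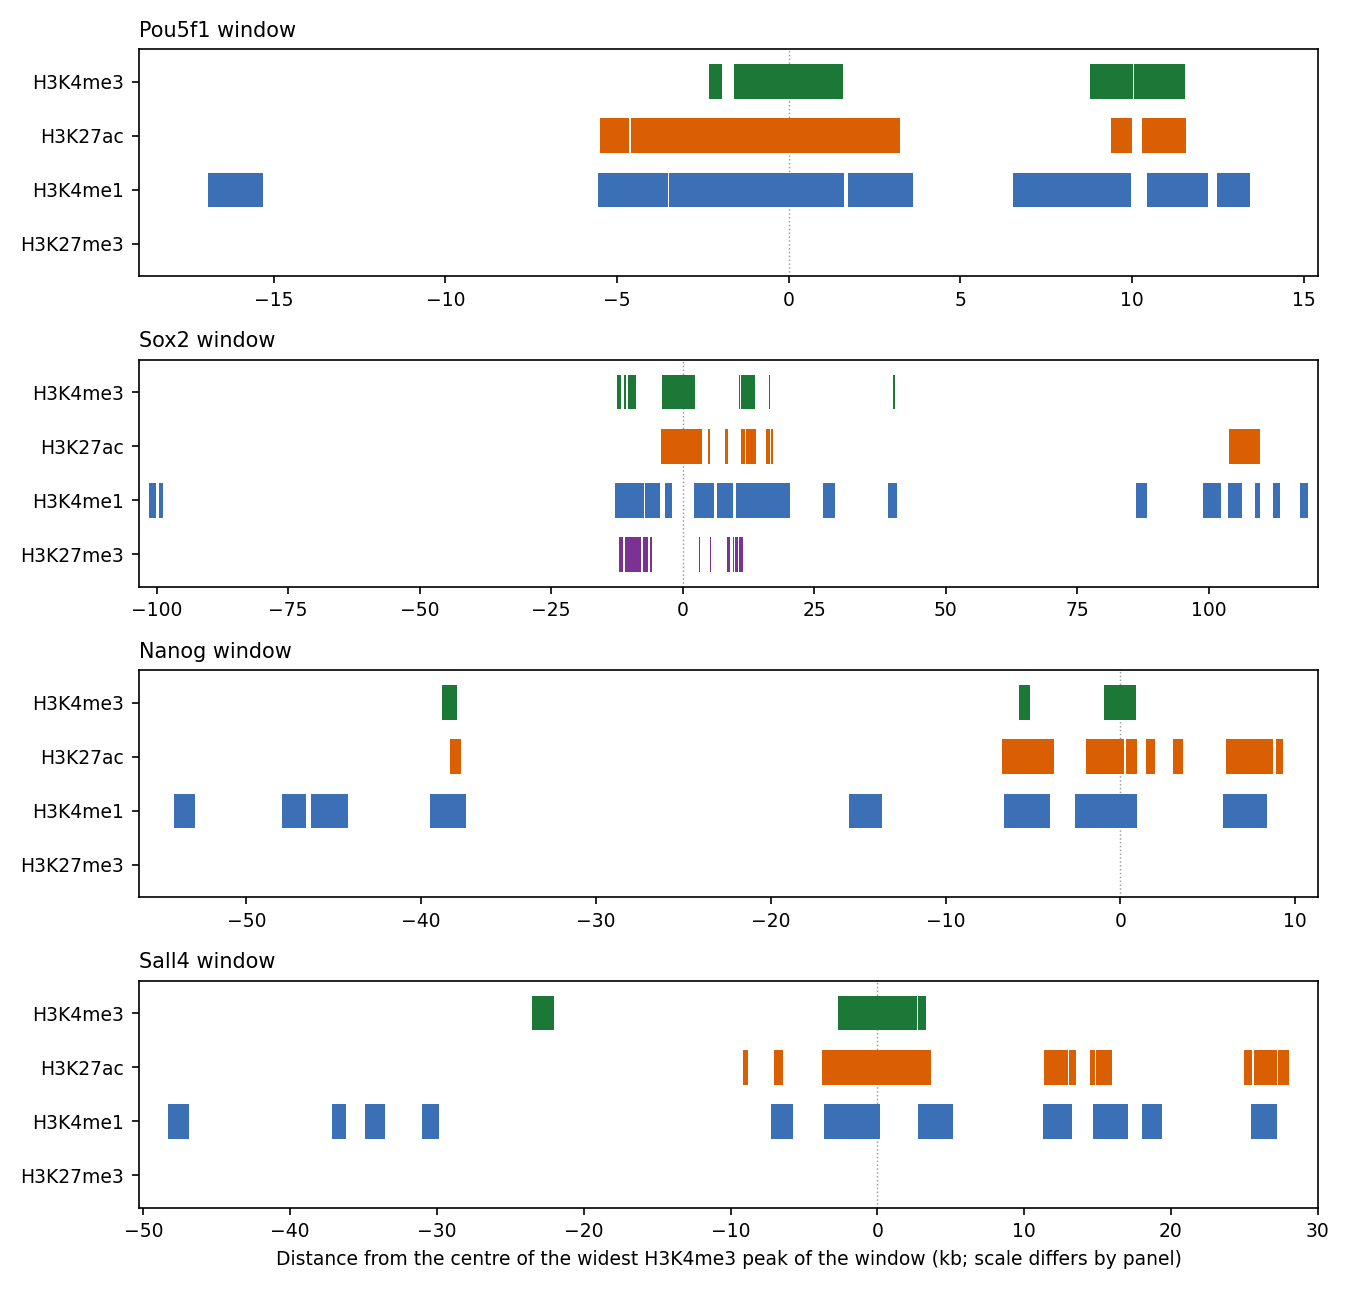
Each panel shows the peaks of the 4 marks as boxes to scale in 1 gene window, against the distance in kb from the centre of the widest H3K4me3 peak (dotted line). The H3K27me3 row is empty for Pou5f1, Nanog and Sall4, and in the Sox2 window the 2 most remote H3K27ac peaks stand just over 100 kb from the centre.

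H3K27me3 flanked the Sox2 promoter region on both sides and was missing over it. On the lower side 7 peaks lay between 34538761 and 34545053 and covered 5.14 kb, rank 431 of 7561 when H3K27me3 peaks within 5 kb are joined. The widest were those of 1557 bp at 34539945 to 34541501 (score 356.32, percentile 89.8) and 1499 bp at 34541544 to 34543042 (score 297.9). On the higher side 6 smaller peaks lay between 34553941 and 34562378 and covered 2.74 kb. Of these, 759 bp at 34561620 to 34562378 (score 115.63) was the widest, followed by 513 bp at 34560876 to 34561388 (score 118.69). The fourth widest of the 13, 515 bp at 34543821 to 34544335, scored 73.14, and the other 8 were 307 to 511 bp wide with scores of 51.56 to 149.8. Between the 2 groups, a span of 8.89 kb (34545054 to 34553940) held no H3K27me3 peak. The peaks that bound this span were weak, with scores of 65.02 and 52.74 against a list median of 69.08. H3K27ac covered 79.4% of that span, H3K4me3 70.6% and H3K4me1 42.0%.

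**Figure D3:**
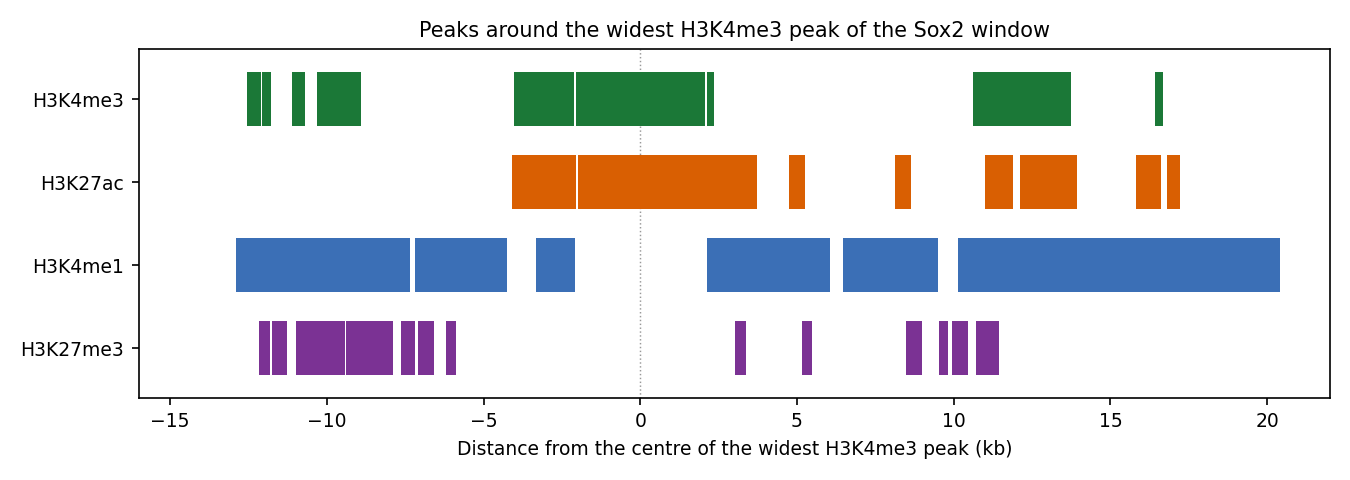
Peaks of the 4 marks around the widest H3K4me3 peak of the Sox2 window are drawn to scale against the distance from its centre in kb. H3K27me3 boxes lie on both sides, with none over the 8.89 kb span around the centre, and H3K27ac boxes lie over the centre and on the right but not among the left H3K27me3 boxes.

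The H3K27me3 groups beside Sox2 differed in the marks they shared. The lower group met 0 H3K27ac peaks and 4 H3K4me3 peaks, the widest of which, 1417 bp at 34540596 to 34542012 (score 1418.15), had 1375 of its bases under H3K27me3. Promoters that carry such an activating and a Polycomb mark together are called bivalent, and no gene start was placed on this peak. An H3K4me1 peak of 5569 bp at 34538017 to 34543585 (score 438.45) had 4170 of its bases under H3K27me3 and met no H3K27ac. The higher group met both kinds: 4 of its 6 peaks touched H3K27ac and 1 touched H3K4me3. Over the window, 4 of 13 H3K27me3 peaks (30.8%) touched H3K27ac, against 1.27% of the whole H3K27me3 list, and 4 of 13 touched H3K4me3, against 33.2% of the list. The contacts with H3K27ac rested on weak peaks and short overlaps. They numbered 2 when 50% of the shorter peak had to be shared, and 0 of 9 when both lists were limited to scores from their median upward. The shares of the list under these settings were not computed. One library per mark cannot show whether H3K27me3 lay on the same chromosomes as H3K27ac or H3K4me3, or in different cells.

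Further H3K4me3 at Sox2 lay 8.93 kb beyond the leading peak, at 34561918 to 34564667, a peak of 2750 bp (score 2477.26) that met both H3K27ac and H3K27me3. The H3K27ac on it scored lower than the H3K27ac on the leading peak. It lay in peaks of 895 bp at 34561931 to 34562825 (score 94.03) and 1806 bp at 34563048 to 34564853 (score 533.52). The widest H3K4me1 peak of all 4 windows, 10259 bp at 34561071 to 34571329 (percentile 99.8), enclosed these and reached past 2 more H3K27ac peaks, of 821 bp at 34566734 to 34567554 (score 243.06) and 431 bp at 34567728 to 34568158 (score 54.54). Between the promoter and this region lay H3K27ac peaks of 532 bp at 34555654 to 34556185 (score 53.11) and 520 bp at 34559039 to 34559558 (score 70.56), both in contact with H3K27me3. The 6 other H3K4me3 peaks of the window were 253 to 446 bp wide and scored 50.7 to 154.34. Sox2 lies within Sox2ot, a long noncoding RNA gene, in RefSeq, and these peaks were not assigned to either gene.

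A remote pair of H3K27ac peaks stood at the far end of the Sox2 window. The first, 3288 bp at 34654703 to 34657990 (score 2095.82, percentile 94.1), began 102 kb beyond the leading peak, and the second, 2523 bp at 34658087 to 34660609 (score 992.19, percentile 85.3), began at 105 kb. No H3K4me3 or H3K27me3 peak touched them, and 3 H3K4me1 peaks of 923 to 1465 bp did (scores 70.03 to 140.02). No H3K27ac peak lay in the window between 34568158 and 34654703. The known Sox2 control region of embryonic stem cells lies downstream of the gene at such a remove, and its annotation was not used here. The widest H3K4me1 peak of this end, 3483 bp at 34649815 to 34653297 (score 205.39), had no H3K27ac.

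Nanog had the narrowest and weakest leading H3K4me3 peak of the 4 genes. At 122657521 to 122659362 it was 1842 bp wide (percentile 80.9) and scored 1551.77 (percentile 59.1), while the other 3 leading peaks all scored 3100, a level that 25.4% of the H3K4me3 list reached. It lay wholly under an H3K4me1 peak of 3555 bp at 122655836 to 122659390 (score 246.28). H3K27ac covered 95.4% of it in peaks of 2189 bp at 122656472 to 122658660 (score 789.66) and 672 bp at 122658745 to 122659416 (score 104.95). The H3K27ac peaks with the highest score at Nanog lay beside this peak and not on it.

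Both H3K27ac peaks at Nanog with a score of 3100 flanked the promoter region. One, 2949 bp at 122651678 to 122654626, ended 2.89 kb before the leading peak and enclosed a small H3K4me3 peak of 628 bp at 122652620 to 122653247 (score 175.67). An enhancer a few kb before the Nanog start is well known from embryonic stem cells and was not placed here. The other, 2681 bp at 122664507 to 122667187, began 5.14 kb beyond the leading peak and met no H3K4me3. Each coincided with strong H3K4me1, in peaks of 2657 bp at 122651774 to 122654430 (score 469.54) and 2466 bp at 122664339 to 122666804 (score 536.05, percentile 94.4), both stronger than the H3K4me1 peak on the promoter. Of the 33 H3K27ac peaks in the windows, 5 scored 3100, against 3.06% of the H3K27ac list. At Pou5f1, Sox2 and Sall4 the peak with that score overlapped the leading H3K4me3 peak, and at Nanog both lay off it. A score belongs to a whole interval, so where within it the acetylation was strongest is unknown. H3K4me3 covered 57.1% of the interval at Pou5f1, 75.5% at Sox2 and 80.5% at Sall4. Whether the contrast with Nanog reflects how the signal was split into peaks was not tested. The remaining H3K27ac peaks near Nanog, at 122659900 to 122660412, 122661445 to 122662046 and 122667362 to 122667766, were 405 to 602 bp wide, scored 52.12 to 66.82 and met no H3K4 methylation. Further out, 37.0 kb before the leading peak, an H3K4me3 peak of 863 bp at 122619613 to 122620475 (score 202.46) met an H3K27ac peak of 627 bp at 122620084 to 122620710 (score 114.81). Both touched an H3K4me1 peak of 2033 bp at 122618949 to 122620981 (score 166.44).

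Sall4 had the widest leading H3K4me3 peak as the list was deposited. Its leading H3K4me3 peak, at 168587347 to 168592751, spanned 5405 bp, rank 39 of 28941, and scored 3100, with a further 555 bp at 168592825 to 168593379 (score 262.7) after a gap of 73 bp. A H3K27ac peak of 7405 bp at 168586268 to 168593672 (score 3100, width percentile 99.9) covered both. With H3K4me3 peaks within 100 bp joined, the Sall4 block was 6033 bp, rank 52 of 24410, and the Sox2 block was wider, at 6384 bp and rank 40. H3K4me1 overlay 54.0% of the leading peak, in a peak of 3825 bp at 168586440 to 168590264 (score 722.73) on its lower part, and a separate peak of 2399 bp at 168592800 to 168595198 (score 169.19) began 48 bp past its higher end. The H3K4me1 cover thus fell on 1 end of the peak, unlike at Pou5f1 and Nanog, where it was complete, and at Sox2, where it was 0. The 0 at Sox2 depended on where H3K4me3 was split into peaks. For the joined blocks the cover was 23.0% at Sox2 and 58.0% at Sall4, and it stayed complete at Pou5f1 and Nanog.

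A chain of distal acetylated elements extended from Sall4 to higher coordinates. The strongest were peaks of 1575 bp at 168615692 to 168617266 (score 1194.65), 22.9 kb from the leading peak, and of 1668 bp at 168601384 to 168603051 (score 594.43), 8.63 kb from it. Between and beside them lay peaks of 1097 bp at 168604972 to 168606068 (score 166.6), 728 bp at 168617370 to 168618097 (158.7), 476 bp at 168603092 to 168603567 (145.72), 585 bp at 168615002 to 168615586 (113.23) and 328 bp at 168604520 to 168604847 (50.6). H3K4me1 lay under the chain in peaks at 168601312 to 168603291 (score 141.72), 168604714 to 168607140 (385.47) and 168615526 to 168617306 (196.54). On the lower side acetylation was sparse, with peaks of 630 bp at 168583020 to 168583649 (score 107.8) and 390 bp at 168580877 to 168581266 (53.26), the former within an H3K4me1 peak at 168582783 to 168584271 (score 108.2).

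The remaining H3K4me3 peak of the Sall4 window stood by itself. At 168566550 to 168568023, on the side where Atp9a is the next protein-coding gene, it was 1474 bp wide and scored 2245.58, yet touched no peak of another mark. Such lone peaks made up 9.94% of the H3K4me3 list, and most were small: the median of the 2878 was 321 bp with a score of 80.68, and 43, this peak included, scored 2245.58 or more.

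Set side by side, the leading peaks shared their acetylation. H3K27ac covered 100% of the leading peaks of Pou5f1 and Sall4, 98.7% at Sox2 and 95.4% at Nanog. A cover of 95% or more was found for 20.2% of the 5524 H3K4me3 peaks that were at least 1842 bp wide, and the median was 68.7%. The width limit was that of the Nanog leading peak, and 95% lay just under its cover, the lowest of the 4. All 4 thus passed both limits by choice, and the 20.2% is a description and no test. Over all H3K4me3 peaks in the windows, 14 of 21 met H3K27ac (66.7%, 95% Wilson interval 45.4 to 82.8), against 49.2% of the list, and the interval of the members includes that share. H3K27me3 met 6 of the 21 (28.6%, interval 13.8 to 50), against 16.6% of the list, and all 6 were at Sox2. H3K4me1 met 19 of 21, against 83.2%. These intervals cover counting only, and peaks of 1 locus are not independent of each other.

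Over all members, leading peaks included, the median width of the 33 H3K27ac peaks was 843 bp, against 818 bp for the list, and the median score was 166.6 against 163.16. For the 21 H3K4me3 peaks the median width was 863 bp against 981 bp, and the median score 262.7 against 888.39. Both medians were below the list's, and 11 of the 21 peaks were those of the Sox2 window, with a median width of 400 bp. The H3K4me1 peaks were somewhat wider than their list, at 1880 bp against 1541 bp, and 31 of 43 scored above the list's median.

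**Figure D4:**
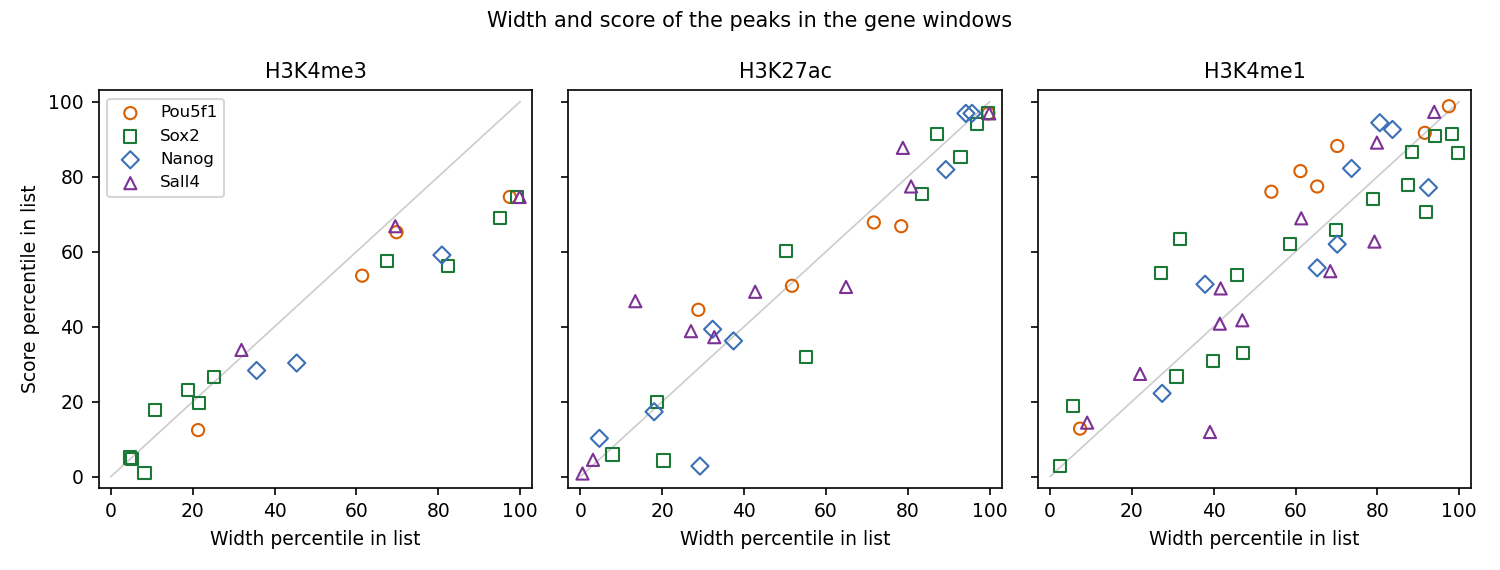
Each symbol is 1 peak in a gene window, placed by the percentage of its list with a smaller width (x axis) and with a lower score (y axis), for H3K4me3, H3K27ac and H3K4me1. Most symbols rise along the diagonal. The leading H3K4me3 peaks of Pou5f1, Sox2 and Sall4 share a score percentile of 74.6, since 25.4% of that list scores 3100 or more. The leading peak of Nanog stands at a score percentile of 59.1.

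Of the 27 distal H3K4me1 peaks in the windows, 10 met H3K27ac (37.0%, 95% Wilson interval 21.5 to 55.8), against 18.7% of the 51178 distal H3K4me1 peaks of the list. There were 4 at Sox2, 4 at Sall4, 1 at Pou5f1 and 1 at Nanog. The interval covers counting only, and peaks of 1 locus are not independent of each other, so it is no test against the share of the list. The count was 6 of 23 (26.1%) when H3K4me3 had to be more than 5 kb away. The share of the list at that distance was not computed, so 26.1% cannot be set against 18.7%. The only distal element that met both H3K27 marks was the H3K4me1 peak of 3034 bp at 34557376 to 34560409 (score 346.2), beside the Sox2 promoter. The 17 with neither mark had a median score of 106.31, against 169.13 for those with H3K27ac, and the same order held over the list, at 99.03 against 210.95. Of the 33 H3K27ac peaks, 17 (51.5%) lay over 1 kb from any H3K4me3 peak, against 54.1% of the list. By covered length, distal acetylation made up 50.2% of the H3K27ac at Sall4, 37.0% at Sox2, 34.7% at Nanog and 7.98% at Pou5f1, against 45.3% over the list. Whole peaks were classed here. The H3K27ac peak of 6275 bp at Pou5f1 thus counted as not distal, with its 3.01 kb on the lower side of the leading peak. So did the Nanog peak of 2949 bp (score 3100), which enclosed an H3K4me3 peak of 628 bp (score 175.67).

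Joined across the stitching distance in common use for super-enhancers, a gap limit between 12 and 13 kb, the H3K27ac peaks of each window formed 1 main cluster around its leading peak. The covered length was 14.9 kb at Sall4 (10 peaks, rank 130 of 16953), 12.8 kb at Sox2 (8 peaks, rank 200), 10.6 kb at Pou5f1 (5 peaks, rank 322) and 10.0 kb at Nanog (7 peaks, rank 361), against a median of 1.52 kb over all clusters. All 4 were thus within the top 2.13%, and Sall4 alone was within the top 1% (170 clusters, from 13.7 kb). The remote pair at Sox2 made a cluster of its own, 5.81 kb, rank 1102. The order of the genes changed with the joining distance: within 5 kb the Sox2 cluster ranked 79, Nanog 158, Pou5f1 258 and Sall4 280 of 20733. At the larger distance the Pou5f1 cluster took in the H3K27ac of the second active region, which was not assigned to a gene. Within 5 kb it left that region out and covered 8.67 kb. Without H3K27ac peaks within 1 kb of H3K4me3, Pou5f1 kept 0.843 kb (percentile 41.95), while Sall4 kept 6.46 kb (97.53), Sox2 5.81 kb (96.86) and Nanog 3.69 kb (92.12). Such peaks were removed whole, so parts of them that lay further from H3K4me3 were lost too.

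**Figure D5:**
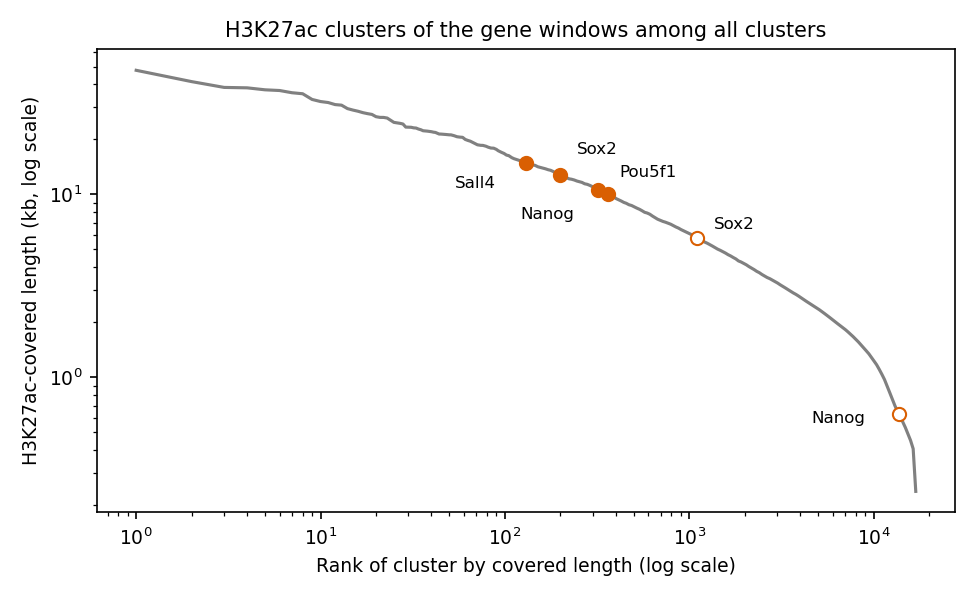
The line gives the H3K27ac-covered length of every cluster (y axis, kb, log scale) against its rank (x axis, log scale). Filled circles are the clusters that hold the leading H3K4me3 peak of each gene, at 10.0 to 14.9 kb, and open circles are the other clusters in the Sox2 and Nanog windows.

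The genes also differed in how far H3K27me3 lay from them. At Sox2 the nearest H3K27me3 peak was 953 bp from the leading H3K4me3 peak, and it was weak (342 bp, score 52.74, percentile 13.9). The nearest that scored above the list's median of 69.08 lay 4.52 kb away on the lower side and 6.41 kb on the higher side. At Pou5f1 the nearest H3K27me3 peak was 35.1 kb away, on the lower side and outside the window, a peak of 1087 bp with a score of 209.39. For Sall4 the distance was 144 kb and for Nanog 222 kb, and on the other side of Nanog the next H3K27me3 peak was 2150 kb away. Sox2 was therefore the only one of the 4 with Polycomb marking in its window, and windows widened by 25 kb on each side added 1 H3K27me3 peak, at Pou5f1.

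The 17 distal H3K4me1 peaks with neither H3K27 mark were spread over all 4 windows. Nanog had 4, all before the leading peak (1186 to 2160 bp wide, scores 74.56 to 291.3). Sall4 had 5, of which 4 lay between 168541742 and 168560173 (scores 64.63 to 128.79) and 1 lay in the acetylated chain, at 168608101 to 168609458 (score 61.68). Pou5f1 had 1, at 35626865 to 35628485 (score 239.12). Sox2 had 7, of which 2 lay 96.7 and 98.1 kb before the leading peak (scores 52.86 and 81.14) and 5 between 24.5 and 115 kb beyond it (scores 87.73 to 226.27).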

How the data were processed

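ChIP-seq of 4 histone modifications in EpiSC9 cells was analysed from 4 peak lists on mm9, 1 per antibody, in which the authors deposited intervals and a score for each. The submitters' processing notes list MACS 1.4, Bowtie 0.12.9 and Cufflinks without saying what each did; the control, threshold and duplicate treatment are not stated in the sources used here. Depth is unknown, and a deeper library or better antibody gives more and wider peaks, so marks are compared with their own list only. Scores that stop near 3100 hide differences among the strongest peaks.

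Peaks overlapped if they shared 1 bp. BED starts were converted to 1-based positions. Autosome lengths were taken as the last peak end. No test was made, because each mark had 1 library; background shares are over whole lists. The 4 genes, their windows and the definitions were chosen with earlier results of these data known. Peaks were named by a fixed rule: all H3K4me3, H3K27ac and H3K27me3 peaks of a window, or the 5 widest where it held over 10, and H3K4me1 peaks with H3K27ac or among the 3 widest; a few are given as ranges. Promoter sequences and gene order came from RefSeq, GRCm38.p6; the wider network of pluripotency genes was not placed, since no annotation of mm9 was used. Overlap, gap and joining functions were tested on simulated data (2000 placed intervals). Python 3.11.15, numpy 2.4.6, pandas 2.3.3, scipy 1.17.1 and matplotlib 3.10.9 were used.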

Additional observations from a re-analysis of the deposited data

How the results depend on the processing

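With 1 library per mark and unknown depth, no value has a replicate error. No paired analysis was possible because each mark had 1 library and no test was run. Of 32 values under other settings, 15 stayed within a limit: for a count, 1.5 times the main count, and for a percentile, the 95% Wilson interval of the main percentile. A percentile within 1 complete list has no sampling error, so this interval was a fixed limit and no measure of spread. The H3K4me1 cover of the leading Sox2 peak had no limit and was counted as changed. Joining H3K4me3 within 100 bp, the settings for Sox2 alone and the distance of 25 kb from the leading peak were chosen after seeing the data. Distal H3K4me1 elements with H3K27ac fell from 10 to 6 when H3K4me3 within 5 kb was excluded. With scores limited to their list's median or more, H3K4me3 peaks with H3K27ac numbered 7 of 10, H3K4me3 peaks with H3K27me3 at Sox2 2 of 4, and H3K27me3 peaks with H3K27ac at Sox2 0 of 9 (2 of 13 with 50% overlap). For these counts, the distal one included, no share of the list was computed under the same setting. They show how the member counts moved and cannot be set against the shares of the full lists. The H3K4me1 cover of the leading Sox2 peak was 23.0% after joining. Cluster percentiles for Pou5f1, Sox2, Nanog and Sall4 were 98.10, 98.82, 97.87 and 99.23. They became 98.76, 99.62, 99.24 and 98.65 with joining within 5 kb, and 41.95, 96.86, 92.12 and 97.53 without H3K27ac near H3K4me3. With scores limited to the list's median or more, they were 98.02, 98.22, 96.46 and 98.63. Fewer peaks entered under the score and distance settings; for joining, the cause was not tested.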
